A study of Arabidopsis thaliana with 12 samples.

Results

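The genes by which Arabidopsis thaliana takes up and stores iron were followed in seedlings of the wild type and of a kinase mutant, with and without abscisic acid (ABA), the hormone of drought and seed dormancy. They are 10 genes of the 33602 in the count table, chosen by locus for what they do, with earlier results of these data known. Of these, 7 act in uptake: the transporter IRT1 (AT4G19690), the reductase FRO2 (AT1G01580), and the transcription factors FIT (AT2G28160), bHLH38 (AT3G56970), bHLH39 (AT3G56980), bHLH100 (AT2G41240) and bHLH101 (AT5G04150). The other 3 encode the ferritins FER1 (AT5G01600), FER3 (AT3G56090) and FER4 (AT2G40300). Counts were high enough to test 9 of the 10, and bHLH100 was left out of the main test and is described by its counts.

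In the root epidermis of Arabidopsis, FRO2 reduces ferric iron at the cell surface and IRT1 imports the ferrous iron. Both are transcribed under FIT, a basic helix-loop-helix (bHLH) factor that binds DNA together with a partner from the bHLH38, bHLH39, bHLH100 and bHLH101 subgroup, and IRT1, FRO2 and these partners are known for their strong rise when iron is scarce. Ferritins are the hollow protein shells that hold iron in plastids. FER1, FER3 and FER4 are the ferritins of vegetative tissue, and FER2 is the ferritin of seeds.

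RNA was taken from whole seedlings, labelled 12 days old, of the Col-0 wild type and of a mutant that the labels call m9. Each was without treatment (control) or treated with ABA. The label m9 was taken to mean OK100-oct, the line in the Col-0 background that the methods name for the sequencing. OK100-oct carries null alleles of 8 Raf-like kinase genes (RAF7 to RAF11, and RAF3 to RAF5), whose products act upstream of the SnRK2 kinases of ABA signaling, and a single such line was sequenced. Each of the 4 groups had 3 libraries, numbered here as in the labels, and the dose and length of the ABA treatment of these seedlings are not given in the sources used here. The labels do not say that the libraries of a group came from separate cultures, so p values measure the spread between libraries only.

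Library totals lay between 16632701 and 26661613 counts. The ABA markers RD29B and RAB18 rose in both genotypes, by 6.18 to 9.68 on the log2 scale, and of the 8 mutated RAF genes, 5 were lower in OK100-oct without ABA and 6 with it. Levels below are CPM values, counts brought to a common library size with TMM factors. With scaling by library totals instead, the median log2 fold change of all genes with ABA moved from -0.06 to -0.37 in the wild type and from -0.01 to -0.18 in OK100-oct, so the changes are relative to the bulk of the genes. No marker of root epidermis, root endodermis or leaf mesophyll was at 0 (6 markers each), so both roots and shoots were in the samples, and fewer cells of a type cannot be told apart from less RNA per cell.

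Under control conditions the 10 genes covered a wide range of levels. Per kilobase of exon in the wild type, FER1 was highest at 396 ± 141 CPM (SD, n = 3 here and below), followed by FER3 at 37.0 ± 0.828 and FER4 at 34.8 ± 4.40, whose libraries overlapped. FIT followed at 6.48 ± 0.921, then bHLH39 at 1.25 ± 0.146 CPM per kilobase. The libraries of FIT did not overlap those of FER4 or of bHLH39, nor those of bHLH39 the libraries of bHLH101. Below these, bHLH101 (0.801 ± 0.339), bHLH38 (0.504 ± 0.377), FRO2 (0.232 ± 0.114) and IRT1 (0.191 ± 0.129) each overlapped the next in the order, and bHLH100 was last at 0.0732 ± 0.0493. IRT1 and FRO2, the importer and the reductase of the root surface, were thus low in these seedlings, at a mean of 0.299 and 0.66 CPM, where 3 counts in a library correspond to 0.112 to 0.167 CPM.

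Among the 9 tested genes, FER1 rose with ABA in both genotypes, while FIT, bHLH39 and FER3 fell in both. IRT1 and FRO2 passed the test only in OK100-oct, and for neither gene did the ABA response differ between the genotypes by the test of the difference itself. At an FDR under 0.05, 1 gene rose and 3 fell in the wild type, against 32.2% and 36.4% of the 20617 genes tested, so the count of genes that fell was near the background. At a change of at least 3-fold, 1 rose (FER1) and 2 fell (FIT and bHLH39), against 7.18% and 7.16% of all genes. In OK100-oct, 1 rose and 5 fell (background 25.9% and 26.1%), of which 0 and 2 reached 3-fold (background 3.56% and 2.43%). The median log2 fold change of the 9 genes with ABA was -0.51 in the wild type and -0.72 in OK100-oct, against -0.06 and -0.01 over all genes.

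**Figure D1:**
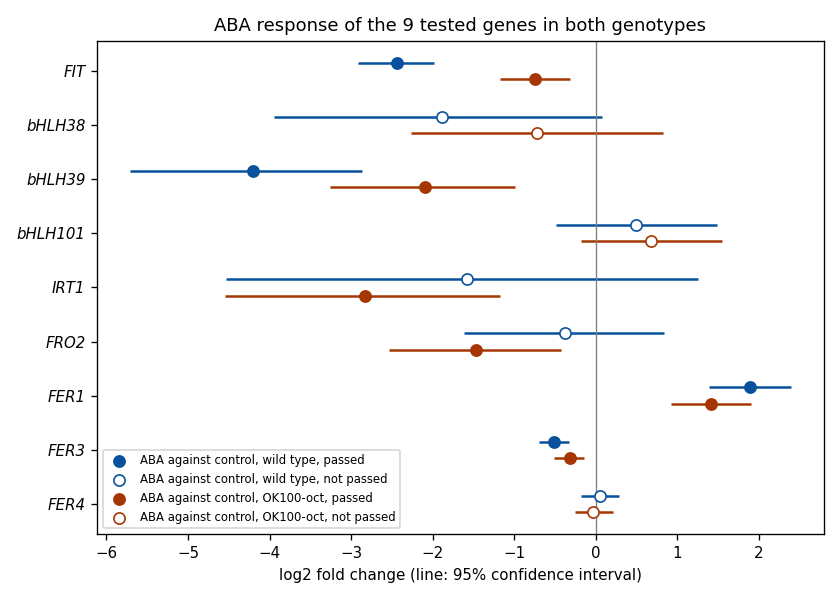
Log2 fold change with ABA against control (x axis) of the 9 tested genes in the wild type (blue) and OK100-oct (brown), with 95% confidence intervals as lines. Filled points passed an FDR under 0.05. The intervals of FIT do not overlap between the genotypes (-2.92 to -1.98 and -1.17 to -0.32), and those of FER4 lie around 0 in both.

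FIT fell with ABA, and it fell less in OK100-oct. It is the master regulator of the uptake genes, and lies on chromosome 2 (12004658 to 12006276, plus strand, TAIR10.1) with 4 exon blocks. In the wild type, FIT stood at 9.37, 7.51 and 9.94 CPM in control libraries 1, 2 and 3, and at 1.32, 1.88 and 1.71 CPM with ABA. In OK100-oct it stood at 7.08, 6.05 and 6.37 CPM without ABA and at 5.23, 3.49 and 2.97 CPM with it. The ABA libraries of either genotype were all below their controls, and with ABA every OK100-oct library was above every wild type library.

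The log2 fold change of FIT was -2.44 ± 0.219 (SE, 5.44-fold lower, adjusted p = 4.51e-07, edgeR quasi-likelihood test) in the wild type. In OK100-oct it was -0.74 ± 0.197 (1.67-fold lower, adjusted p = 0.00661). The difference of these responses, OK100-oct minus wild type, was 1.70 ± 0.296 on the log2 scale (95% confidence interval 1.06 to 2.34, adjusted p = 0.0017). FIT was the 1 gene of the 9 whose response differed in this direction, against 8.62% of all genes, and 0 of the 9 differed in the other (background 9.55%). In that other, downward direction there were also 0 at an unadjusted p under 0.05 and 0 with DESeq2. In the upward direction, bHLH39 (2.1, adjusted p = 0.144, edgeR) had an unadjusted p under 0.05 as well. No share of all genes is given for unadjusted p or DESeq2. Among the libraries with ABA, FIT was 2.36-fold higher in OK100-oct (log2 1.24, adjusted p = 0.00085). Without ABA the difference was -0.46 (interval -0.86 to -0.06, adjusted p = 0.172), although the libraries of the genotypes did not overlap.

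bHLH39, a partner of FIT, fell with ABA in both genotypes from levels already low. Its counts were 29, 31 and 29 in the wild type control libraries and 2, 2 and 1 with ABA. In OK100-oct they were 40, 21 and 23 without ABA and 5, 0 and 12 with it. The groups with and without ABA did not overlap in either genotype. Over the pooled libraries bHLH39 was 19.5-fold lower with ABA in the wild type (95% exact counting interval 8.06 to 61.6) and 4.34-fold lower in OK100-oct (2.55 to 7.79), where the intervals cover counting error only. The fitted log2 fold changes were -4.20 (adjusted p = 6.26e-05) and -2.1 (adjusted p = 0.00456). The difference between these responses was 2.1 ± 0.982 (adjusted p = 0.144). Without OK100-oct ABA library 2, which held 0 counts of bHLH39, it was 2.61 (adjusted p = 0.0234).

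To show what lies before FIT and bHLH39, the 2 regulators that fell in both genotypes, the 250 bases upstream of each annotated start are printed from the RefSeq TAIR10.1 genome, 5′ to 3′ on the gene's strand. FIT's window is chr2:12004408-12004657 (plus strand) and that of bHLH39 is chr3:21087711-21087960 (minus strand). Both strands were searched for ACGTG, the core of the ABA-responsive element that ABF factors bind, and for CACGTG, the G-box, which holds ACGTG on each strand. Matches would be in capitals, and neither window has one.
FIT: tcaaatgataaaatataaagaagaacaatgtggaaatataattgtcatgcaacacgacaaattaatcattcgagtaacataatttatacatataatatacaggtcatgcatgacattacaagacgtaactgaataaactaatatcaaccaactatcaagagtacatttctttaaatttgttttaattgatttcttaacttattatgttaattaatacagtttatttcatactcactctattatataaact
bHLH39: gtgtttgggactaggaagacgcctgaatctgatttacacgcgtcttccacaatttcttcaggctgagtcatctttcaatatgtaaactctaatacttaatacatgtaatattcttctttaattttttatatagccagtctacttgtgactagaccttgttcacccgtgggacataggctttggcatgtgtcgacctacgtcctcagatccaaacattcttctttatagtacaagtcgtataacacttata

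bHLH38 is the neighbour of bHLH39 on chromosome 3, with 1144 bases between them, and its coding sequence is 84.8% identical to that of bHLH39. No 50-base stretch of the exons of bHLH39 occurs in the exons of another gene, so reads of the pair can be told apart at that length. bHLH38 had 13, 16 and 2 counts in the wild type control libraries and 1, 4 and 4 with ABA. In OK100-oct it had 34, 10 and 4 counts without ABA and 9, 10 and 6 with it. The groups overlapped in both genotypes, with control library 3 of either genotype low. The log2 fold change with ABA was -1.89 in the wild type (interval -3.95 to 0.08, adjusted p = 0.0814) and -0.72 in OK100-oct (-2.27 to 0.82, adjusted p = 0.414). The former passed in 5 of 18 alternatives: with library totals (-2.19, adjusted p = 0.0484), the DESeq2 Wald test (-1.91, adjusted p = 0.0494) and the likelihood ratio test (-1.90, adjusted p = 0.029), without wild type control library 3 (-2.41, adjusted p = 0.0152) and without OK100-oct control library 1 (-1.89, adjusted p = 0.0396). In OK100-oct it turned to 0.40 without control library 1 (adjusted p = 0.694). Of the 1082 exon bases of bHLH38, 386 lie opposite exons of AT3G56960, which had 74 to 194 counts, and whether the counting used strand is not stated.

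bHLH100 was the least counted of the subgroup. It had 3, 1 and 1 counts in the wild type control libraries and 0 in each of the 3 with ABA, where 0 allows up to 3 counts per library. In OK100-oct it had 10, 6 and 12 counts without ABA and 3, 6 and 3 with it. All OK100-oct control libraries were above all wild type control libraries. With no filter on counts, where bHLH100 entered the edgeR quasi-likelihood test, it was called lower with ABA in the wild type (adjusted p = 0.0382) and higher in OK100-oct among the libraries with ABA (adjusted p = 0.0083). Its adjusted p was 0.203 for ABA in OK100-oct, 0.119 between the genotypes without ABA and 0.252 for the difference of responses. Fitted folds are not given, since 1 group is at 0. Pooled, bHLH100 had 28 counts in OK100-oct and 5 in the wild type under control conditions, a ratio of 4.36 (95% exact counting interval 1.66 to 14.5, counting error only).

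bHLH101 had positive values with ABA, and no comparison passed the test. It had 22, 8 and 22 counts in the wild type control libraries and 44, 29 and 8 with ABA, which overlapped. In OK100-oct it had 31, 32 and 28 counts without ABA and 55, 31 and 42 with it. On the CPM scale these were 1.14 to 1.32 and 1.5 to 2.62, which did not overlap. The log2 fold changes with ABA were 0.49 (interval -0.49 to 1.48) and 0.68 (-0.18 to 1.55, adjusted p = 0.167), and in the wild type the value was -0.05 without ABA library 1. Of the exon bases of bHLH101, 79 lie opposite exons of AT5G04140, a gene with 20389 to 34746 counts per library.

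IRT1, the iron importer, was highest in the control libraries of OK100-oct. It lies on chromosome 4 (10707344 to 10709015, plus strand), 2505 bases from IRT2, to which its coding sequence is 76.2% identical. IRT1 had 6, 9 and 2 counts in the wild type control libraries and 0, 2 and 4 with ABA. In OK100-oct it had 100, 11 and 32 counts without ABA and 9, 1 and 7 with it. Control library 1 of OK100-oct alone held 100 of the 143 counts of its group. In CPM its 3 control libraries spanned 0.453 to 3.74, all above the 0.0484 to 0.428 of the ABA libraries.

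With ABA, IRT1 fell in OK100-oct (log2 value -2.83 ± 0.783, SE, interval -4.54 to -1.17, adjusted p = 0.00816). Over the pooled libraries it fell 7.38-fold (95% exact counting interval 4.45 to 13, which covers counting error only and not the spread between libraries). Without OK100-oct control library 1 the log2 value was -1.76 (adjusted p = 0.0673), so the call rests on that library. Its value in the wild type was -1.58 (interval -4.53 to 1.25, adjusted p = 0.292), and the difference between the genotypes was -1.25 (-4.90 to 2.47, adjusted p = 0.66). Between the genotypes without ABA, IRT1 was 2.65 ± 0.787 higher in OK100-oct on the log2 scale (adjusted p = 0.0707), and the groups overlapped in CPM. This value was past the threshold with the DESeq2 Wald test (2.64, adjusted p = 0.0292), the likelihood ratio test (2.61, adjusted p = 0.0241), with no count filter (2.64, adjusted p = 0.0405) and without OK100-oct control library 2 (3.1, adjusted p = 0.0253).

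FRO2, the ferric reductase, showed the same high library. It had 16, 16 and 6 counts in the wild type control libraries and 14, 7 and 11 with ABA. In OK100-oct it had 66, 19 and 27 counts without ABA and 8, 10 and 17 with it. The OK100-oct groups did not overlap, with 0.782 to 2.47 CPM without ABA and 0.381 to 0.692 CPM with it, and the wild type groups did. FRO2 fell with ABA in OK100-oct (log2 value -1.47 ± 0.486, adjusted p = 0.0211). The call was lost without control library 1 (-0.84, adjusted p = 0.16), ABA library 1 (-1.29, adjusted p = 0.0778) or ABA library 2 (-1.41, adjusted p = 0.0594). Its value in the wild type was -0.38 (interval -1.61 to 0.84), and the difference between the genotypes was -1.09 (-2.72 to 0.53, adjusted p = 0.339).

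**Figure D2:**
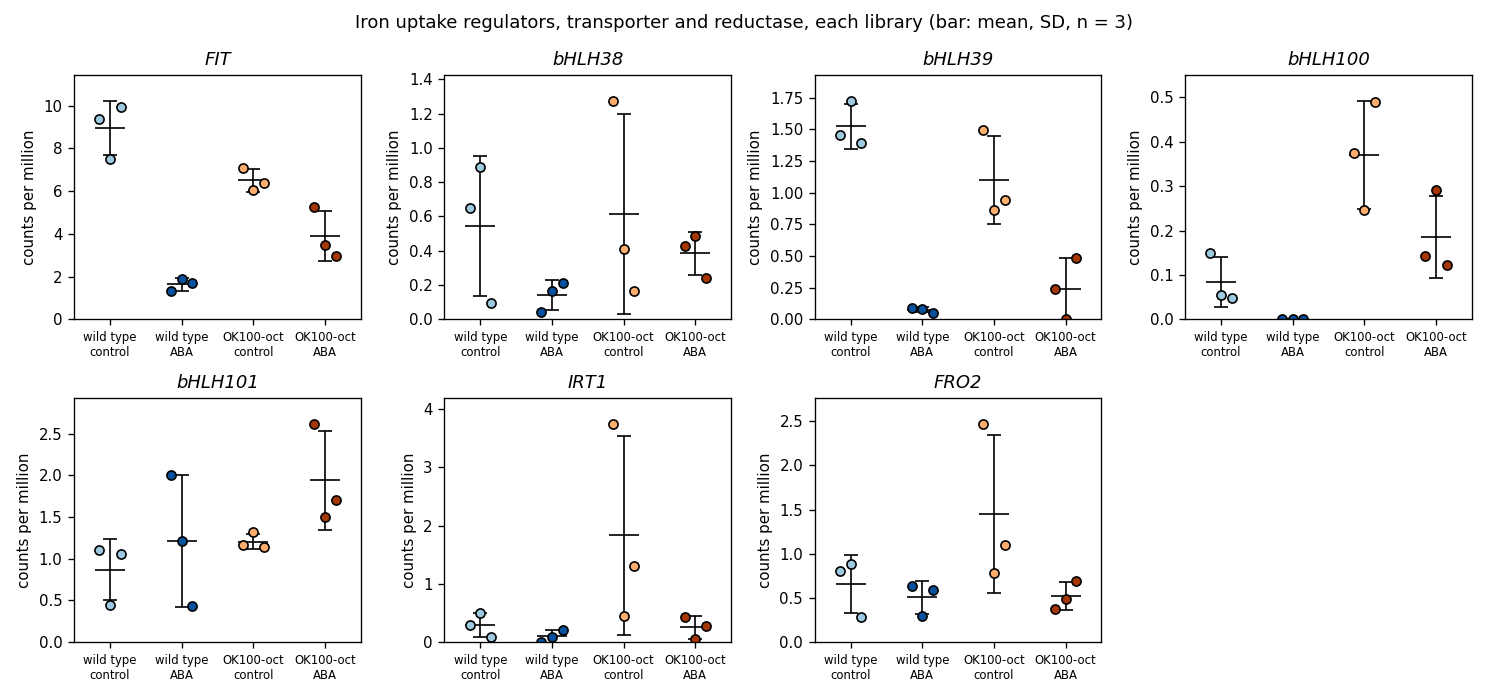
CPM (y axis, linear, its own scale in each panel) of the 7 uptake genes in each of the 12 libraries, grouped by genotype and treatment on the x axis. Points are libraries 1, 2 and 3 from left to right, and bars are the mean and SD (n = 3). The 4 groups of FIT do not overlap, with the wild type with ABA lowest at 1.32 to 1.88 CPM, and 1 OK100-oct control library at 3.74 CPM lies above all others for IRT1.

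Values of root markers are set beside those of IRT1 and FRO2. The 6 root hair and root epidermis markers summed to 36.2 to 53.1 CPM in the wild type control libraries and 48.5 to 62.2 in those of OK100-oct, and 0 of the 6 passed the test between these groups. With ABA the sums were 42.0 to 47.2 CPM in the wild type and 55.5 to 61.9 in OK100-oct, where 3 of the 6 passed as higher. Between control and ABA, 2 of the 6 were lower in the wild type (ADF8 at -0.77 and MYB66 at -0.89 on the log2 scale). In OK100-oct the same pair was lower (-0.53 and -1.33) and EXPA7 was higher (0.67). Of the 6 root endodermis markers, 4 rose with ABA in the wild type, and their sum was 40.7 to 57.9 CPM without ABA and 74.3 to 79.7 with it. In OK100-oct 4 rose and CASP4 fell by 0.90 on the log2 scale, with sums of 47.4 to 51.6 and 62.1 to 84.4 CPM. Over all genes, 36.4% fell and 32.2% rose with ABA in the wild type, and 26.1% and 25.9% in OK100-oct. The 2 of 6 epidermis markers that were lower in the wild type were thus near the background. Between the genotypes, 21.3% of all genes were higher in OK100-oct with ABA, and 2.58% were higher and 2.29% lower without it. The part of tissue makeup in the values of the iron genes was not tested.

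FER1, the main ferritin, rose with ABA in both genotypes. It lies on chromosome 5 (227953 to 230051, minus strand) in 8 exon blocks. Wild type levels of FER1 were 482, 415 and 790.4 CPM in the control libraries and 1950.2, 1885 and 2412 CPM with ABA. In OK100-oct it stood at 350.4, 533 and 572 CPM without ABA and at 1354, 1173 and 1344 CPM with it. The ABA libraries were all above the controls, and the wild type ABA libraries were all above those of OK100-oct.

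The rise of FER1 was 1.89 ± 0.231 on the log2 scale in the wild type (3.70-fold, adjusted p = 8.34e-06) and 1.41 ± 0.228 in OK100-oct (2.66-fold, adjusted p = 0.000244). The difference of these responses was -0.48 ± 0.316 (interval -1.16 to 0.21, adjusted p = 0.321). Without wild type control library 3, the one with 790.4 CPM, it was -0.80 (adjusted p = 0.0247). With ABA, FER1 was 1.61-fold below the wild type in OK100-oct (log2 -0.69, adjusted p = 0.0242). That call was lost without wild type ABA library 3 (-0.57, adjusted p = 0.0935) or any OK100-oct ABA library (-0.73 to -0.66, adjusted p = 0.0512 to 0.0709). The noncoding gene AT5G01595 runs opposite FER1 over 1334 bases but shares no exon base with it, and had 47 to 137 counts per library.

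FER3 moved the other way from FER1, by less. It stood at 48.3, 47.2 and 46.1 CPM in the wild type control libraries and at 30.7, 31.6 and 36.9 CPM with ABA. In OK100-oct it stood at 59.7, 51.6 and 54.3 CPM without ABA and at 44.9, 42.3 and 45.3 CPM with it. The groups did not overlap in either genotype. FER3 fell by 0.51 ± 0.0872 on the log2 scale in the wild type (1.43-fold, adjusted p = 0.000146) and by 0.32 ± 0.0857 in OK100-oct (1.25-fold, adjusted p = 0.00682). These falls did not pass a test for a difference between them (0.19, interval -0.07 to 0.46, adjusted p = 0.297). With ABA, FER3 was 1.34-fold above the wild type in OK100-oct (adjusted p = 0.00191), and without ABA 1.17-fold (adjusted p = 0.148).

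FER4 stood at 37.3 to 47.5 CPM in the wild type control libraries and 43.0 to 49.8 with ABA. In OK100-oct its libraries held 41.1 to 49.5 CPM without ABA and 41.6 to 45.8 with it, so all 4 groups overlapped. The log2 fold change of FER4 with ABA was 0.05 in the wild type (interval -0.18 to 0.29) and -0.03 in OK100-oct (-0.26 to 0.21). With scaling by library totals the former was -0.25 (adjusted p = 0.0507). Of its exon bases, 118 are shared with its neighbour AT2G40290 on the same strand, which had 1019 to 2404 counts.

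The share of FER1 in the ferritin message followed these changes. Of the summed CPM per kilobase of FER1, FER3 and FER4, FER1 made up 84.7% in the wild type control group and 95.9% with ABA. In OK100-oct it made up 81.3% and 92.9%. Per kilobase, the mean of FER1 was 10.7 times that of FER3 in the wild type control group and 56.6 times with ABA, and 7.90 and 26.3 times in OK100-oct.

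Because FER1 and FER3 code for like proteins yet moved in opposite directions, the 250 bases before their starts are printed, read as above on the minus strand. FER1's window is chr5:230052-230301 (minus strand) and that of FER3 is chr3:20816036-20816285 (minus strand). Capitals mark ACGTG and CACGTG on either strand.
FER1: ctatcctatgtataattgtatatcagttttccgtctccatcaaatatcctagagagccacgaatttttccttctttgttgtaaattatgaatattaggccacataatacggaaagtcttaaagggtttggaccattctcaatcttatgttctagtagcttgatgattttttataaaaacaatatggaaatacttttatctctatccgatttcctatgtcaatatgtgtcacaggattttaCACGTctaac
FER3: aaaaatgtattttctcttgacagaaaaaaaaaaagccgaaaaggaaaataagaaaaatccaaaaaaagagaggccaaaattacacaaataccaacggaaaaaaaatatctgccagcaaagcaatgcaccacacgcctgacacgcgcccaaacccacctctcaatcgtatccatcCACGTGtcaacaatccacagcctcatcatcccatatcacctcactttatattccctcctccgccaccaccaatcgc

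FER3 holds a CACGTG, which begins 76 bases before its start. FER1, the ferritin that rose, holds an ACGTG on the opposite strand, which begins 10 bases before its start, and no CACGTG. Of the upstream windows of 27443 protein-coding genes, 22.9% hold ACGTG and 6.49% hold CACGTG. Among the 9 iron genes whose windows were searched, 5 hold ACGTG (FRO2, bHLH38, bHLH100, FER1 and FER3) and 3 of these hold CACGTG (bHLH38, bHLH100 and FER3). The same windows were searched for GNATATNC, the site of the phosphate starvation regulator PHR1, which 5.46% of genes hold, and for CACGAGG, which 0.70% hold, and 0 of the 9 had either. Bases beyond these 250 were not searched, so a gene without a match here may hold the site elsewhere. FER3 and FER4 are the closest pair of ferritins, with 79.3% identical coding bases, while FER1 is 69.7% identical to FER3 and 70.0% to FER4.

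**Figure D3:**
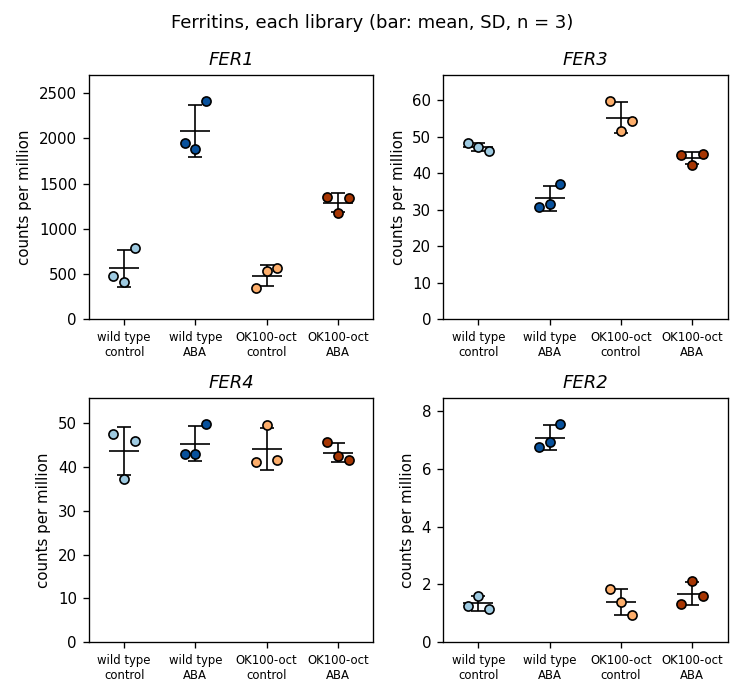
CPM (y axis, linear, its own scale in each panel) of FER1, FER3, FER4 and the seed ferritin FER2 in each library, by genotype and treatment on the x axis. Points are libraries 1, 2 and 3 from left to right, and bars are the mean and SD (n = 3). FER1 is high in the 6 ABA libraries, FER3 is low in them, FER4 stays within 37.3 to 49.8 CPM, and FER2 is high in the wild type with ABA only, at 6.74 to 7.56 CPM.

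Between the genotypes under control conditions, 0 of the 9 genes passed the test in either direction, where 2.58% of all genes were higher and 2.29% lower in OK100-oct. At an unadjusted p under 0.05 there were 4 (IRT1 and FRO2 with positive values, FIT with a negative one, and FER3 with a positive one), and DESeq2 called 1. The shares of all genes above are at an FDR under 0.05. None is given for unadjusted p or DESeq2, so an excess cannot be read from these counts. With ABA, FIT and FER3 were higher and FER1 was lower in OK100-oct (2 and 1 of 9, background 21.3% and 20.7%). The sizes of the ABA responses of these 3 genes were smaller in OK100-oct (-0.74 against -2.44 for FIT, -0.32 against -0.51 for FER3 and 1.41 against 1.89 for FER1, on the log2 scale), and the test of the difference passed for FIT alone. The ABA libraries that picked these genes also enter their responses, so a difference is partly built in. Other genes went both ways. IRT1 (-2.83 against -1.58), FRO2 (-1.47 against -0.38) and bHLH101 (0.68 against 0.49) had larger responses in OK100-oct. Those of bHLH38 (-0.72 against -1.89) and bHLH39 (-2.1 against -4.20) were smaller, and FER4 lay near 0 in both.

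Beyond the 10, a list of 59 other iron genes was followed, of which 49 could be tested. Of these, 28 fell with ABA in the wild type and 13 rose (background 36.4% and 32.2%), with a median log2 fold change of -0.51. In OK100-oct, 16 fell and 12 rose (background 26.1% and 25.9%), with a median of -0.20. Among treated seedlings, 19 were higher and 5 lower in OK100-oct (background 21.3% and 20.7%), and the ABA response was shifted upwards in 11 and downwards in 3 (background 8.62% and 9.55%). One part of the list is for uptake and coumarins, the phenolics that roots secrete to mobilize iron. Of its 14 tested genes, 9 fell and 3 rose in the wild type, and 4 fell and 3 rose in OK100-oct. The response was shifted upwards in 7 of these and downwards in 0. Of the 16 regulators, 9 fell and 4 rose in the wild type, and 5 fell and 3 rose in OK100-oct. Of the 14 genes of chelation and transport, 8 fell and 4 rose in the wild type, and 7 fell and 4 rose in OK100-oct. In each of these last groups, regulators and chelation, the response was shifted upwards in 1 gene and downwards in 1. Of the 5 tested genes of storage, 2 rose and 2 fell in the wild type, and 2 rose and 0 fell in OK100-oct. Their response was shifted upwards in 2 and downwards in 1.

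The genes of the list that fell most in the wild type were F6'H1 (AT3G13610), which makes the coumarin scopoletin, and NAS1 and NAS4, which make the iron chelator nicotianamine. F6'H1 went from 17.2, 17.4 and 14.6 CPM to 0.501, 1.42 and 0.322 CPM with ABA in the wild type. In OK100-oct it went from 17.8, 8.89 and 13.2 CPM to 2.33, 2.47 and 4.68 CPM. The groups did not overlap, and the log2 fold changes were -4.38 ± 0.404 and -2.05 ± 0.327, with a difference of 2.32 ± 0.543 (adjusted p = 0.00986). NAS1 had log2 fold changes of -4.03 and -1.98, and NAS4 of -3.42 and -2.06, in the wild type and OK100-oct respectively, and all of these falls passed the test. With ABA, NAS4 was 4.53-fold above the wild type in OK100-oct (adjusted p = 0.00132). The difference of the responses passed the test for NAS1 and not for NAS4.

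IRT2 and FRO6 fell with ABA in the wild type (log2 fold changes of -2.25 and -2.49), while their values in OK100-oct were 0.21 (interval -0.62 to 1.05) and 0.07 (-0.35 to 0.49). FRO6, a reductase of leaves, held 48.3 to 77.4 CPM in the wild type control libraries and 10.8 to 13.2 with ABA. In OK100-oct FRO6 held 53.7 to 76.1 CPM without ABA and 53.9 to 87.1 with it, and the difference of the responses was 2.57 ± 0.289 (adjusted p = 7.95e-05). IRT2, a transporter close to IRT1, had 12, 3 and 17 counts in the wild type control libraries and 1, 2 and 4 with ABA. In OK100-oct IRT2 had 18, 22 and 19 counts without ABA and 23, 17 and 20 with it, and IRT2 was 7.96-fold higher there with ABA than in the wild type (adjusted p = 0.000898). The wild type groups of IRT2 overlapped in CPM, and the difference of its responses, 2.46 (adjusted p = 0.0331), lost the call in 10 of 18 alternatives. Of the 6 leaf mesophyll markers, 4 also fell with ABA in the wild type (background 36.4%). The 6 summed to 27232 to 29508 CPM in the wild type control libraries and 18008 to 19769.7 with ABA. In OK100-oct with ABA they summed to 25795 to 28171 CPM, and their part in the values of FRO6 was not tested.

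**Figure D4:**
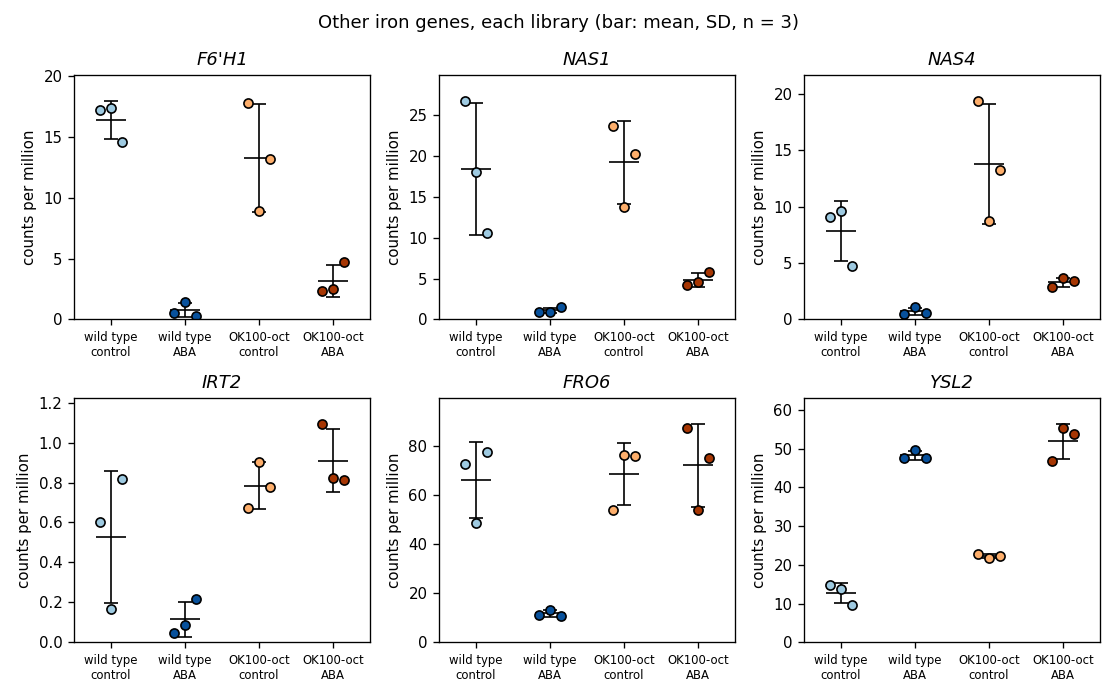
CPM (y axis, linear, its own scale in each panel) of F6'H1, NAS1, NAS4, IRT2, FRO6 and YSL2 in each library, by genotype and treatment on the x axis. Points are libraries 1, 2 and 3 from left to right, and bars are the mean and SD (n = 3). In the wild type with ABA, F6'H1 is at 0.322 to 1.42 CPM and FRO6 at 10.8 to 13.2 CPM, below the other 3 groups.

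The genes of the list that rose most in the wild type were NRAMP3, which releases iron from the vacuole, FER2 and the nicotianamine-metal transporter YSL2. FER2 stood at 1.25, 1.61 and 1.15 CPM in the wild type control libraries and at 6.74, 6.91 and 7.56 CPM with ABA. In OK100-oct FER2 stood at 1.83, 1.40 and 0.939 CPM without ABA and at 1.33, 2.13 and 1.59 CPM with it, which overlapped. FER2 rose 5.28-fold in the wild type (adjusted p = 1.03e-06), its value in OK100-oct was 1.20-fold (adjusted p = 0.397), and the difference of the responses was -2.14 ± 0.347 on the log2 scale (adjusted p = 0.00104). NRAMP3 rose 5.50-fold in the wild type and 3.03-fold in OK100-oct, and with ABA it was 1.99-fold lower in OK100-oct. For NRAMP3 the difference of the responses did not pass the test. YSL2 rose 3.79-fold in the wild type and 2.33-fold in OK100-oct, where AT1G21140 (VTL1), a vacuolar iron transporter-like gene, rose 2.03-fold.

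Under control conditions, 4 of the 49 were higher and 4 lower in OK100-oct, where 2.58% and 2.29% of all genes were. YSL2 (1.75-fold), AT1G74770 (1.61-fold) and OPT3 (1.48-fold), a transporter that loads iron into the phloem, were the most raised. AT3G25190 (VTL5, 1.64-fold), IRT3 (1.45-fold) and NRAMP1 (1.35-fold) were the most lowered. IRT3, a zinc and iron transporter, was also 1.62-fold lower in OK100-oct with ABA. With ABA the other two lay in the opposite direction, NRAMP1 at 1.92-fold higher (adjusted p = 2.94e-06) and AT3G25190 at 2.01-fold higher (adjusted p = 0.00079) in OK100-oct. The call of IRT3 under control conditions was lost in 13 of 20 alternatives, that of AT3G25190 in 8 of 20 and that of NRAMP1 in 2 of 20. Of the raised genes, OPT3 lost its call in 4 of 20, and AT1G74770 and YSL2 in 1 of 20 each.

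**Figure D5:**
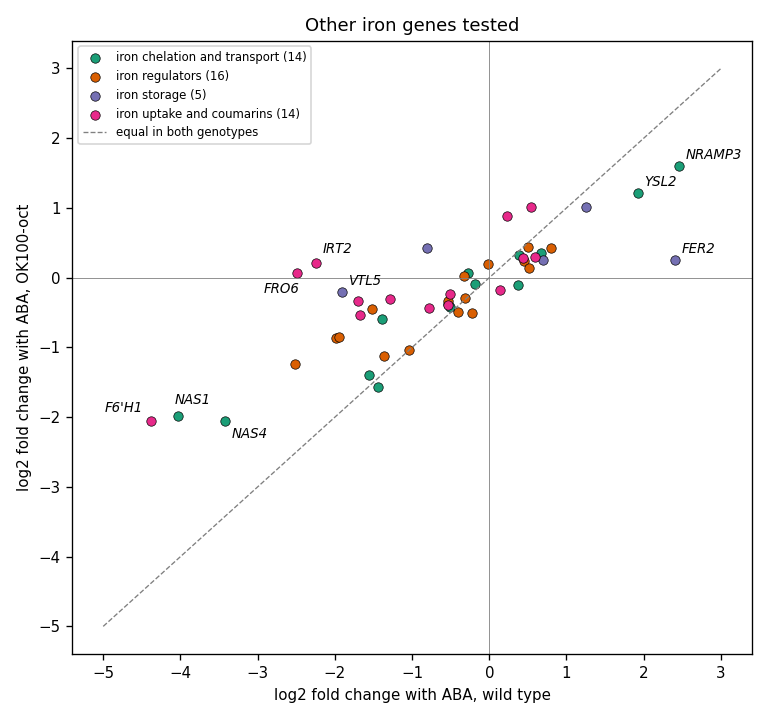
Log2 fold change with ABA in the wild type (x axis) and in OK100-oct (y axis) of the 49 other iron genes tested, coloured by list, with the number of genes of each list in brackets. The dashed line marks equal change. F6'H1, NAS1 and NAS4 lie lowest in both, IRT2 and FRO6 lie near 0 in OK100-oct at -2.25 and -2.49 in the wild type, and FER2 lies near 0 in OK100-oct at 2.40 in the wild type.

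As a description of likeness, the log2 levels (CPM plus 0.5) over the 12 libraries were set against those of every other tested gene with a mean of at least 1 CPM. The genes most like FER1 were AT5G47860, AT5G35690, ALDH7B4 (an aldehyde dehydrogenase), AT1G19660 and NAP (a NAC transcription factor of leaf senescence), each with a Pearson r of 0.994. Those most like IRT1 were GAPCP-1 (r = 0.931), a plastid glycolytic enzyme, RGP2 (0.929), ATP3 (0.916), RFNR2 (0.916), a root ferredoxin reductase, and AT1G05370 (0.911). The 12 libraries share their 4 groups, and for IRT1 a single library lies far above the others.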

How the data were processed

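RNA of 12 seedling libraries was sequenced by the authors, trimmed with Trimmomatic, mapped to TAIR10 with HISAT2 2.1.0 and counted per gene with HTSeq. The labels give Trimmomatic 0.36 and HTSeq 0.9.1 where the methods name other versions, kits and a different seedling age. The label m9 was taken as OK100-oct, the mutant the methods name. The deposited values are raw counts per gene, and 0 columns were left without a sample. Tests used edgeR 4.0.16 in R 4.3.3 (TMM, filterByExpr, a quasi-likelihood model with 4 group means over all 12 libraries), with Benjamini-Hochberg adjustment over 20617 genes and an FDR of 0.05, also with the 3-fold minimum of the methods. Pooled ratios of counts have exact 95% intervals, which cover counting error only. Alternatives were other scalings, tests (DESeq2 1.42.0) and filters, a replicate block and each library left out. The fit was also run on simulated data, with changes placed only in genes of higher mean count than IRT1 or FRO2. Its outcome is not given here, and it does not cover the genes with few counts. Exons, upstream windows (250 bases) and shared 50-base windows come from the RefSeq TAIR10.1 genome, and 1 upstream window is not reported here.

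The genes and lists were chosen with earlier results of these data known. Named among the other iron genes were the 3 with the largest change in each direction per comparison, and for likeness the 5 highest correlations. Mutated kinase genes and ABA markers are given as counts and ranges.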

Additional observations from a re-analysis of the deposited data

Results flagged for a closer look

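For 1 of the 9 tested genes and 9 of the other iron genes named, the ABA response differed between OK100-oct and the wild type by the test of the difference (edgeR quasi-likelihood test, adjusted p, OK100-oct minus wild type on the log2 scale). Over all genes, 8.62% were shifted upwards and 9.55% downwards, so the 1 of 9 was near the background. Some of the other iron genes were named for their change in this same comparison, so their number is not a result. Of the 49 tested on that list, 11 were shifted upwards and 3 downwards. FIT differed by 1.70 (adjusted p = 0.0017), from a fall of -2.44 in the wild type to -0.74 in OK100-oct. F6'H1 (AT3G13610) differed by 2.32 (adjusted p = 0.00986), from -4.38 to -2.05. FRO6 differed by 2.57 (adjusted p = 7.95e-05), from -2.49 to 0.07. IRT2 differed by 2.46 (adjusted p = 0.0331), from -2.25 to 0.21, and the call was lost in 10 of 18 alternatives, 9 of which left out a library (value 2.01 to 3.15, adjusted p up to 0.0983). NAS1 differed by 2.05 (adjusted p = 0.0103), from -4.03 to -1.98. NRAMP1 differed by 1.37 (adjusted p = 1.63e-05), from -1.70 to -0.34. AT3G25190 (VTL5) differed by 1.71 (adjusted p = 0.000527), from -1.91 to -0.20. FER2 differed by -2.14 (adjusted p = 0.00104), from a rise of 2.40 to 0.26. YSL2 differed by -0.71 (adjusted p = 0.0125), from 1.92 to 1.22, and that call was lost in 1 of 19 alternatives (adjusted p = 0.0515). BTS, which encodes an E3 ligase that holds back the iron deficiency response, differed by -0.38 (adjusted p = 0.0298), from 0.80 to 0.42, and that call was lost in 11 of 19 alternatives (-0.42 to -0.24).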

How the results depend on the processing

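Of the values of the 9 tested genes under the alternatives, 816 kept their direction and side of the threshold, 15 passed the threshold anew, 8 no longer passed it and 22 changed sign, each of the last below the threshold. FIT and FER3 kept every call, and bHLH39 those with ABA wherever it was tested. Requiring at least 10 counts in every library, which leaves out the genes with few counts, left 2 genes lower with ABA and 1 at 3-fold in the wild type, 2 lower in OK100-oct and 0 at 3-fold. In the wild type, 4 genes were lower with ABA and 3 at 3-fold with library totals, the DESeq2 Wald test, the likelihood ratio test, without wild type control library 3 or without OK100-oct control library 1 (bHLH38 in addition), and with no count filter (bHLH100 in addition). With only the groups compared in the fit, 2 rose in OK100-oct, the second being bHLH101. Under control conditions, 1 gene (IRT1) was higher in OK100-oct with the DESeq2 Wald test, the likelihood ratio test or no count filter. The likelihood ratio test gave 2 genes with a response shifted upwards in OK100-oct. Library totals turned FER4 to -0.25 with ABA in the wild type, 0.08 between the genotypes with ABA and 0.05 in the difference of responses.

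Leaving out 1 library at a time gave 3 to 5 genes lower with ABA in OK100-oct and 1 to 2 at 3-fold, 0 to 1 higher in OK100-oct under control conditions, 0 to 1 lower in OK100-oct with ABA, 1 to 2 with a response shifted upwards and 0 to 1 downwards. The count of 3 was without OK100-oct control library 1. No share of all genes is given for these or the other alternatives, so an excess cannot be read from their counts. As lowest and highest values with a library left out, signs turned for FRO2 between the genotypes with ABA (-0.23 to 0.29), bHLH38 with ABA in OK100-oct (-1.15 to 0.40) and between the genotypes under control conditions (-0.88 to 0.76), bHLH101 with ABA in the wild type (-0.05 to 0.86) and in the difference of responses (-0.18 to 0.73), FER1 between the genotypes under control conditions (-0.39 to 0.11), and FER4 with ABA in the wild type (-0.05 to 0.12) and OK100-oct (-0.07 to 0.07), between the genotypes without ABA (-0.09 to 0.08) and with it (-0.11 to 0.01), and in the difference of responses (-0.14 to 0.02). The causes were not tested.

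Same-numbered libraries of different groups did not deviate together as a set (correlation of deviations -0.485 to 0.393 over 18 pairs, and 2 of 12 libraries were closest to one of their own number). Pairs of different number spanned -0.55 to 0.59 (36 pairs). Both ends were control libraries of different genotypes. Wild type control library 3 was at -0.55 with OK100-oct control library 1 and at 0.59 with OK100-oct control library 2. What these control libraries share was not tested. With the replicate number as a block, 1 gene rose and 3 fell with ABA in the wild type, 1 rose and 5 fell in OK100-oct, and every other count of calls among the 10 genes was as without it.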
